A study of Mus musculus with 10 samples.

Results

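Cadherins, protocadherins and claudins are families of adhesion proteins, some of which take part in the junctions between hair cells and supporting cells. The genes described here were chosen by symbol, as every listed gene beginning with Cdh and a number, with Pcdh, or with Cldn and a number, except the tip link genes *Cdh23* and *Pcdh15*. They numbered 85 of the 34590 genes listed in the count files, of which 22 were cadherins, 36 were protocadherins and 27 were claudins. No expression value entered the choice.

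Classical cadherins hold neighbouring cells together by binding to the like protein on the next cell, and catenins tie their tails to actin. The non-clustered protocadherins bind more weakly and sort cells by type, whereas the clustered alpha, beta and gamma protocadherins are known for giving neurons individual identities. Claudins form the strands of tight junctions and set which ions pass between cells. In the organ of Corti these junctions make up the reticular lamina, the sealed surface between endolymph and the fluid around the cell bodies, and loss of *CLDN14* or *Cldn9* function is a known cause of deafness.

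Bulk RNA-seq was performed on 10 libraries of handpicked mouse cochlear cells, with 2 libraries for each of 5 cell types. Supporting cells (SCs (P26)) were tdTomato-labelled cells of Fgfr3iCreER+ mice that carried the Cre-dependent Rosa26 tdTomato reporter, taken at P27 for library SC-12 and P26 for SC-11. Converted hair cells (cHCs (P33), libraries cHC-13 and cHC-16) came from mice with the same Cre and reporter plus Atoh1-HA+ and alpha9 AChR-EGFP+, so that cells were recognised by EGFP and tdTomato together. In the study's text the inducible Cre acts in Deiters' and pillar cells after tamoxifen, so SCs here stand for those cells, and *Chrna9*, whose promoter drives the EGFP, was used to pick cHCs. The ages of OHCs (P22) and IHCs (P74) are those the study gives. Outer hair cells (OHCs (P7), libraries P7-15 and P7-14, and OHCs (P22), libraries m21 and f22) carried a prestin-YFP knock-in on 1 allele per the labels, whereas for OHCs (P7) the study's supplement names a Prestin-CreERT2 line with the tdTomato reporter and tamoxifen. Inner hair cells (IHCs (P74), libraries m74 and m75) were tdTomato-labelled cells of mice with Pval-Cre+ and a Cre-dependent tdTomato reporter. The IHC titles name this reporter Ai9, whereas the study's text names Ai14 as its tdTomato line. The study calls the libraries of a type biological duplicates, the titles give the SC libraries different ages and the OHC (P22) and IHC libraries different codes, and the number of animals behind each library is not given in the sources used here. P values measure the spread between these libraries.

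Between 15016129 and 40518766 reads per library were assigned to genes. Library m21 stood apart, with 72.14% of its reads unassigned and a scaling factor of 0.583, against 0.93 to 1.199 in the other libraries. For 4 of the 10 records the attached file held another library, and each file was therefore taken for the library that its own name gives. The hair cell marker genes summed to between 4452.2 and 7374.5 CPM (read counts scaled to library size with TMM factors) in the 8 hair cell libraries and to 362.2 and 363.1 CPM in SCs. The 10 SC marker genes summed to 1672.8 and 2357.1 CPM in SCs, 1274.5 and 880.1 CPM in cHCs, 112.9 and 368.4 CPM in OHCs (P7), 22.5 and 10.3 CPM in OHCs (P22), and 1153.7 and 927.3 CPM in IHCs. Of these 10 genes 6 were called in the joint test. The fibroblast markers summed to 704.4 and 811.5 CPM in SCs, mostly *Lum*, and to between 3.08 and 403.1 CPM in the other libraries. In bulk libraries, fewer cells of a type and less RNA per cell cannot be told apart.

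Of the 85 genes, 47 passed the filter on low counts and were tested by edgeR's quasi-likelihood F-test in 1 model of all libraries. Among them, 8 differed between the 5 cell types at a false discovery rate (FDR) under 0.05, which is 17%, whereas 7.81% of all 16891 genes tested did so. A gene that is high in only 1 cell type passes the filter through that cell type, so this share was not read as a property of the families. The 8 genes were *Cdh1*, *Cdh4*, *Cdh13*, *Pcdh8*, *Pcdh9*, *Pcdh17*, *Pcdha4* and *Cldn23*. *Pcdh7* was called only between pairs of cell types, which made 9 genes in all.

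**Figure D1:**
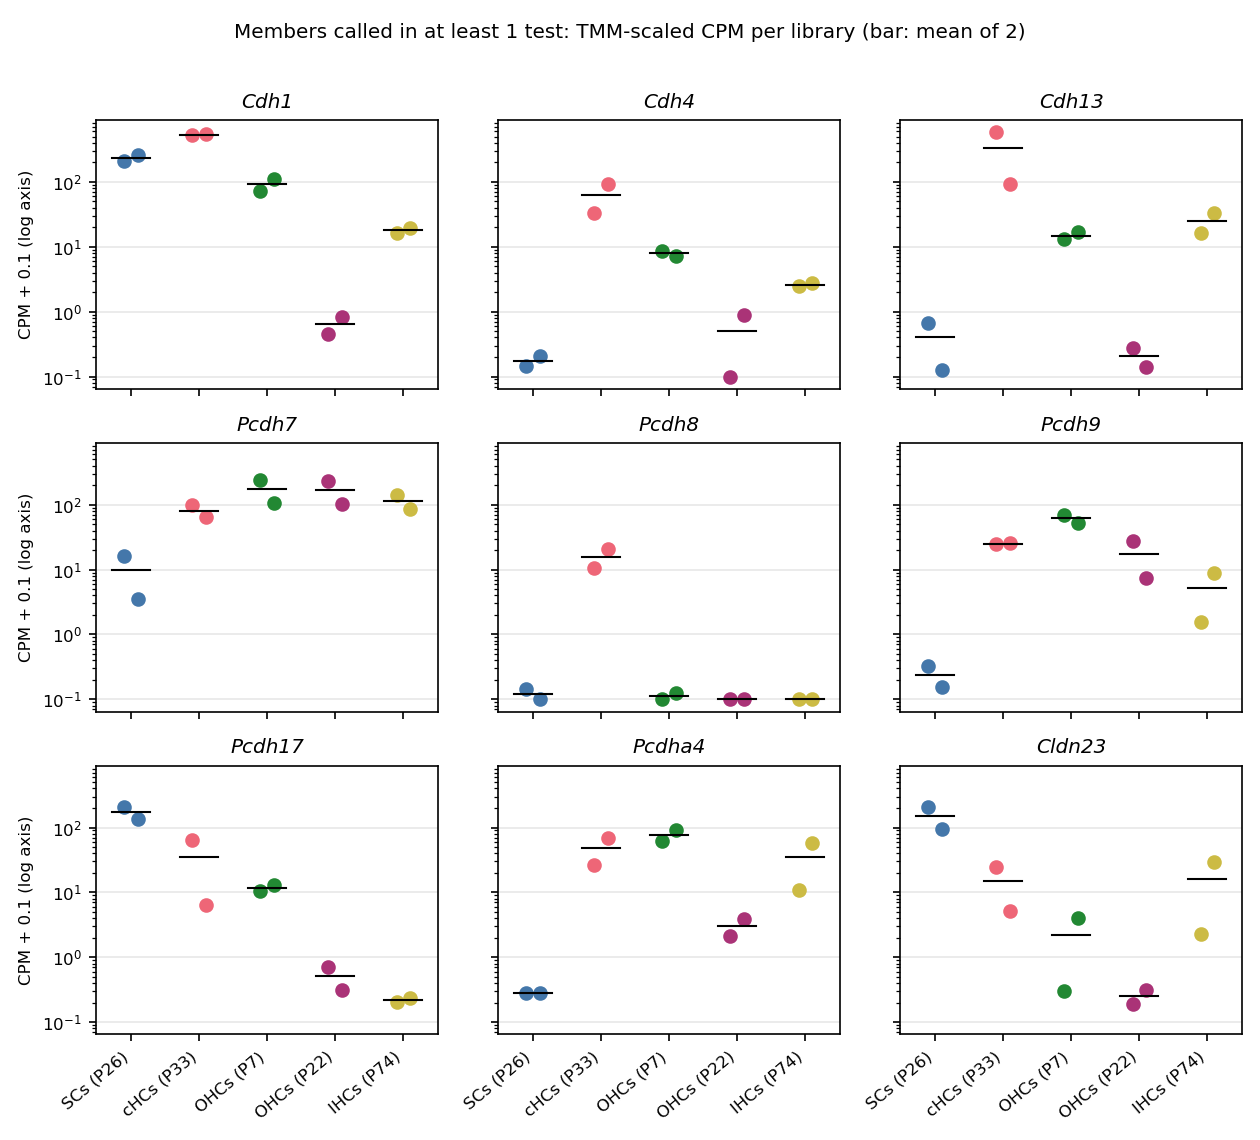
CPM scaled by TMM factors, plus 0.1 on a log axis, for the 9 genes called in at least 1 test. Each point is a library, each bar the mean of 2 libraries, and colours mark the cell type. *Cdh13*, *Cdh4*, *Pcdh8*, *Pcdh9* and *Pcdha4* were near 0 in both SC libraries and above 10 CPM in both cHC libraries, whereas *Cdh1* was under 1 CPM only in OHCs (P22).

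RefSeq promoter windows of the GRCm38.p6 build were available for 39 of the 85 genes, in 50 windows. Those of the 4 protocadherins that the results turn on are shown, because *Pcdh7* and *Pcdh9* were higher in hair cells, *Pcdh8* had all but 2 of its reads in cHCs and *Pcdh17* was highest in SCs. Each line gives the 250 bases before the annotated start, 5′ to 3′ on the gene's strand, and capitals mark the short elements searched for, CCAAT and TATAAA on either strand. The windows lie at chr14:79771313-79771562 on the minus strand for *Pcdh8*, chr14:93890680-93890929 on the minus strand for *Pcdh9*, chr5:57717831-57718080 on the plus strand for *Pcdh7* and chr14:84443313-84443562 on the plus strand for *Pcdh17*.
Pcdh8: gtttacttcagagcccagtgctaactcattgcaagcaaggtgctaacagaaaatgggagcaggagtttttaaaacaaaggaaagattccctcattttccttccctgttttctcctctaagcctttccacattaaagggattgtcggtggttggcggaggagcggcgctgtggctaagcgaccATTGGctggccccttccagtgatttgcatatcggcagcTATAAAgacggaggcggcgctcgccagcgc
Pcdh9: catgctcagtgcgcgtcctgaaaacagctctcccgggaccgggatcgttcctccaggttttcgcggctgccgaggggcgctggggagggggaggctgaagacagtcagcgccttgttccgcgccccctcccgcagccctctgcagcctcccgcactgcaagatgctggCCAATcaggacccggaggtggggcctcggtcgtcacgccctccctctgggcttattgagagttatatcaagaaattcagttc
Pcdh7: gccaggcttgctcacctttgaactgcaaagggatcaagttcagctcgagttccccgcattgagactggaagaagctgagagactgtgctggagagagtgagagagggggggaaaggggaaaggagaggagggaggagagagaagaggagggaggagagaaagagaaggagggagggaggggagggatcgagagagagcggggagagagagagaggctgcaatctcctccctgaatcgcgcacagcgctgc
Pcdh17: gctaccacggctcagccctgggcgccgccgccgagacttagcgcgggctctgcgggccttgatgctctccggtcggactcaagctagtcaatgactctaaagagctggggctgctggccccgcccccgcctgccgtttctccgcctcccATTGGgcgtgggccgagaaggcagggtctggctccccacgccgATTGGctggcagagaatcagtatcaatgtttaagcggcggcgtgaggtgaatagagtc
*Pcdh8* held TATAAA starting 30 bases before the start and the reverse of CCAAT starting 68 bases before it. *Pcdh17* held the reverse of CCAAT at 101 and 58 bases, *Pcdh9* held CCAAT at 82 bases, and *Pcdh7* held neither. TATAAA was found in 12.4% and CCAAT in 33.8% of all 32851 windows of this length. The letters CAGCTG and CAGATG, 2 forms of the E-box that basic helix-loop-helix factors such as ATOH1 bind, were searched for on both strands and were in none of the 4 windows. At least 1 of these forms was in 11 of the 50 windows of the families (22%) and in 25.5% of all windows.

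Of the 22 cadherins 11 were tested, and *Cdh1*, *Cdh4* and *Cdh13* were called in the joint test. *Cdh1*, which encodes E-cadherin of epithelial adherens junctions (mm9 chromosome 8, 109127251 to 109194146, plus strand), stood at 213 and 256 CPM in SCs, 524 and 545 CPM in cHCs and 73.1 and 112 CPM in OHCs (P7). In OHCs (P22) it stood at 0.352 and 0.715 CPM, and in IHCs at 16.4 and 19.4 CPM. The libraries of no 2 cell types overlapped, with cHCs highest and OHCs (P22) lowest.

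Relative to SCs, *Cdh1* was lower in OHCs (P22) by a log2 fold change of -8.72 (SE 0.72, FDR 5.52e-05) and in IHCs by -3.71 (SE 0.56, FDR 0.00446). OHCs (P22) were also below cHCs, at -9.91 (SE 0.75, FDR 0.000277), and below OHCs (P7), at -7.38 (SE 0.68, FDR 0.00225). With only the OHC libraries in the fit, the call between the OHC types was lost (FDR 0.0667). The rise from SCs to cHCs was not called, at 1.19 on the log2 scale (SE 0.51), and neither was the difference between OHCs (P7) and cHCs, at -2.53 (SE 0.53, FDR 0.0834). Without m74 the call between IHCs and SCs was lost (FDR 0.0534). The summed SC markers were also lowest in OHCs (P22), and their part in the *Cdh1* differences was not tested. Among the 10 SC markers, *Fgfr3* (458 and 430 CPM) and *Prox1* (247 and 293 CPM) were, like *Cdh1*, higher in both cHC libraries than in SCs, whereas the sum was lower.

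*Cdh13* encodes T-cadherin, which has no cytoplasmic tail and is anchored to the membrane by a lipid (chromosome 8, 120807633 to 121848821, plus strand). It stood at 0.577 and 0.0265 CPM in SCs, 579 and 92.2 CPM in cHCs, 12.9 and 16.7 CPM in OHCs (P7), 0.176 and 0.0421 CPM in OHCs (P22), and 16.3 and 33.6 CPM in IHCs. Both cHC libraries were above all others, SCs and OHCs (P22) were at the bottom, and the cHC libraries themselves differed widely. It was higher in cHCs than in SCs by 10.18 on the log2 scale (SE 1.62, FDR 0.00736), in OHCs (P7) by 5.67 (SE 1.36, FDR 0.0464) and in IHCs by 6.43 (SE 1.40, FDR 0.0356). The call in OHCs (P7) was lost in 7 of 17 alternative fits, those without SC-11, cHC-13 or P7-14 among them. That in IHCs was lost in 4 of 16, those without SC-11 or cHC-13 among them. Only 3 reads in all were counted on *Cdh13* in OHCs (P22), against 17262 in cHCs, a ratio of rates of 3210 with a 95% counting interval from 1098 to 15567 (FDR 0.00761). The ratio of IHCs to OHCs (P22) was 291 (interval 99.5 to 1415, FDR 0.0343), and this call was lost without m21 (FDR 0.114) or f22 (FDR 0.0912).

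*Cdh4* encodes R-cadherin (chromosome 2, 179177136 to 179634078, plus strand). Its level in SCs was 0.0444 and 0.106 CPM, and cHCs had 32.9 and 92.3 CPM. The other hair cells were lower, with 8.59 and 7.12 CPM in OHCs (P7), 0 and 0.799 CPM in OHCs (P22), and 2.36 and 2.68 CPM in IHCs. The cHC libraries were above every other library without overlap, and the difference from SCs was 9.57 on the log2 scale (SE 2.10, FDR 0.0472). This call was lost without SC-12 (FDR 0.209), without SC-11 (FDR 0.164) and without cHC-16 (FDR 0.285).

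*Cdh2*, which encodes N-cadherin, was at or under 0.0444 CPM in both SC libraries and at 0.0425 and 5.60 CPM in cHCs. It stood at 24.6 and 48.8 CPM in OHCs (P7), 44.3 and 1.18 CPM in OHCs (P22), and 96.5 and 25.4 CPM in IHCs. The native hair cells were thus above SCs in every library, with OHCs (P7) and IHCs also above both cHC libraries, but *Cdh2* was not called in the joint test (FDR 0.109). OHCs (P7) exceeded cHCs by 3.69 on the log2 scale (SE 1.92, FDR 0.496).

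Levels of different genes were compared as RPKM, in which the scaled CPM are divided by the length of all exons in kilobases. The cadherin signal below is the sum over the 22 cadherins described, without *Cdh23*. By this measure *Cdh1* made up 99.1% and 95.3% of it in the SC libraries and 66% and 78.7% in the cHC libraries. In cHCs *Cdh13* came next by mean RPKM, at 29.9% and 5.45%. In OHCs (P7) *Cdh1* made up 50% and 69.3% and *Cdh2* 9.54% and 17.2%. In IHCs *Cdh2* made up 59.7% and 18.6%, and *Cdh1* 17.9% and 25%. Without *Cdh23*, the cadherin signal of OHCs (P22) was low in sum, at 10.7 and 7.88 RPKM, beside 173 and 152 RPKM in cHCs. *Cdh23* itself stood at 1691 and 640 CPM in OHCs (P22) and 301 and 796 CPM in cHCs. The leading gene of the sum differed between the OHC (P22) libraries, with *Cdh2* at 51.6% in m21 and *Cdh24* at 65.1% in f22. *Cdh15*, known as M-cadherin of muscle, held 35.6% and 28.2% there, at 12.3 and 7.24 CPM.

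**Figure D2:**
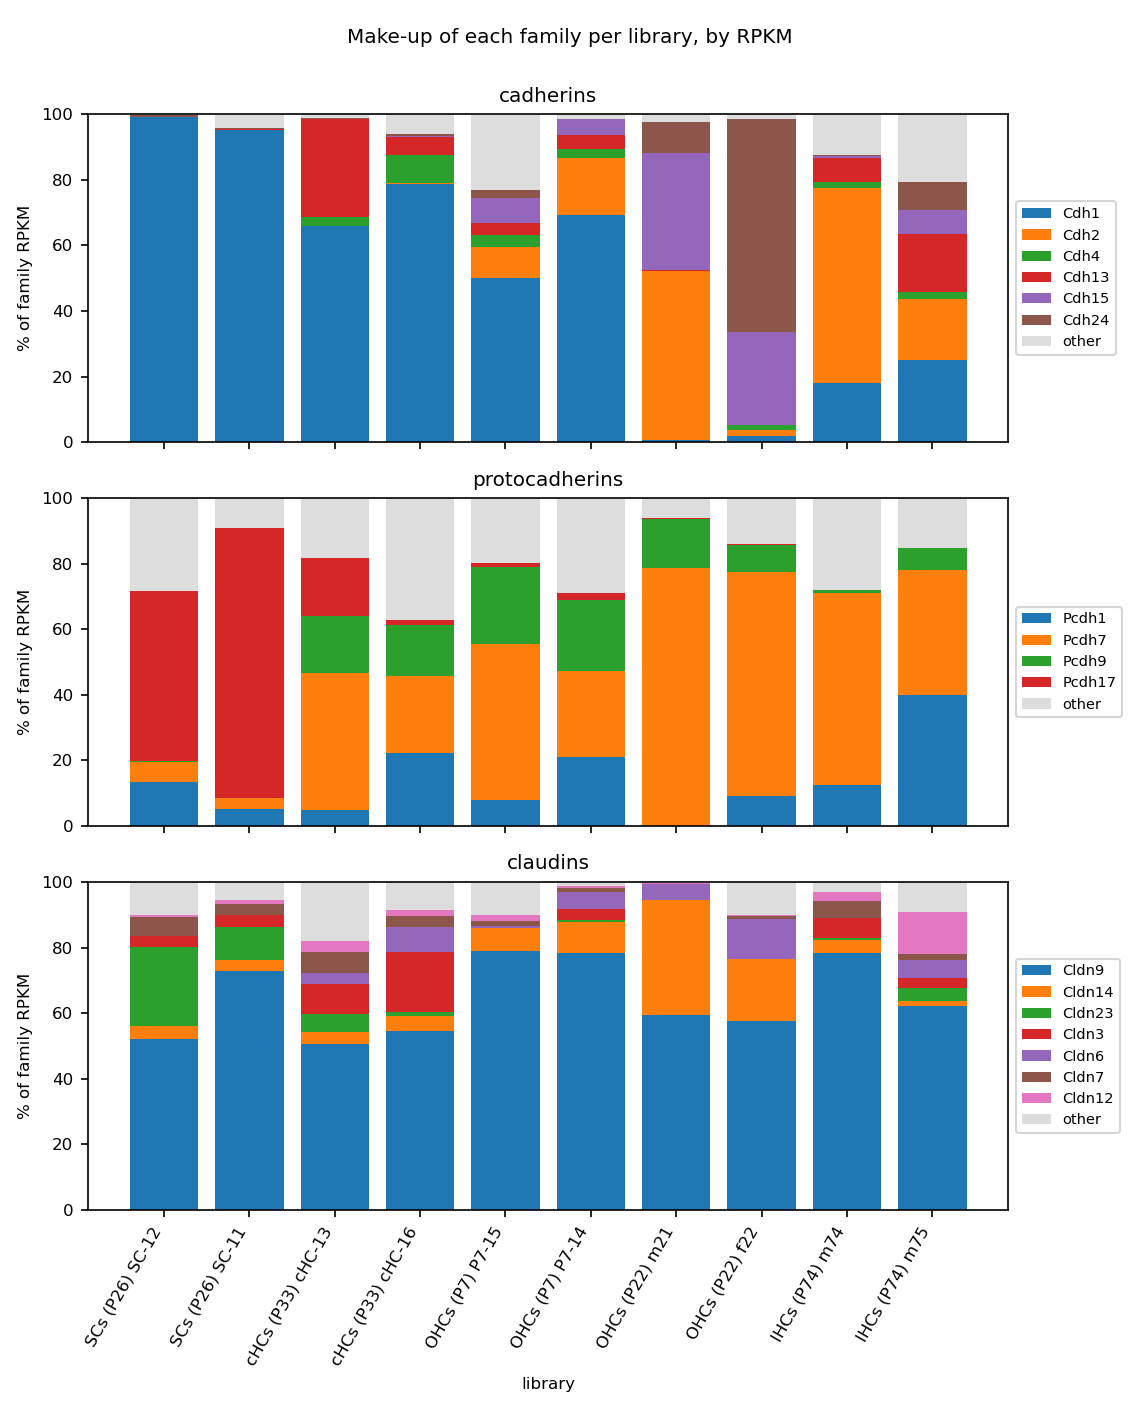
Share of each family's summed RPKM held by its leading genes, in percent, with 1 bar per library and all other genes in grey. *Cdh1* filled nearly the whole cadherin bar of SCs and almost none of that of OHCs (P22), *Pcdh17* gave way to *Pcdh7* in hair cells, and *Cldn9* held over 50% of the claudin bar in every library. *Pcdha4* and *Pcdhga9* are left out because the annotation gave no length for these symbols. *Cdh23* and *Pcdh15* are not among the genes described and do not enter the bars.

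Among the remaining cadherins, *Cdh3*, which encodes P-cadherin, stood at 0 and 9.42 CPM in SCs, compared with 5.91 and 31.9 CPM in cHCs, and did not exceed 0.0881 CPM in any native hair cell library. It was not called (FDR 0.113). *Cdh11* stood at 19.0 CPM in P7-15 and 0.573 CPM in P7-14. *Cdh11* is known from mesenchymal cells, and the fibroblast markers summed to 403.1 CPM in P7-15 and 53.1 CPM in P7-14, and their part in the *Cdh11* level was not tested. *Cdh5*, the cadherin of blood vessels, reached 2.08 CPM in P7-15 and at most 0.128 CPM elsewhere. Of the 13 type II classical cadherins, 5 were tested and none was called by edgeR.

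Of the 9 delta protocadherins 6 were tested, and *Pcdh8*, *Pcdh9* and *Pcdh17* were called in the joint test. *Pcdh17*, a delta-2 protocadherin (chromosome 14, 84843370 to 84936867, plus strand), stood at 208 and 133 CPM in SCs, 63.2 and 6.26 CPM in cHCs, 10.5 and 12.7 CPM in OHCs (P7), 0.617 and 0.210 CPM in OHCs (P22), and 0.101 and 0.137 CPM in IHCs. Both SC libraries were above all others, and the cHC libraries spanned those of OHCs (P7). It was lower than in SCs by -8.73 on the log2 scale in OHCs (P22) (SE 1.42, FDR 0.00409) and by -10.43 in IHCs (SE 1.52, FDR 0.0037), and lower in OHCs (P22) than in cHCs by -6.43 (SE 1.30, FDR 0.0235). The last call was lost without cHC-13, without m21 and without f22. In cHC-13 the SC markers summed to 1274.5 CPM, against 880.1 CPM in cHC-16. The largest parts of the sum in cHC-16 were *Fgfr3* (430 CPM) and *Prox1* (293 CPM). In cHC-13 and cHC-16, *Sox9* stood at 126 and 16.0 CPM, *Gjb2* at 83.3 and 1.72 CPM, and *Slc1a3* at 77.9 and 0.33 CPM. Of the 10 SC markers only *Prox1* was higher in cHC-16 than in cHC-13. The SC and fibroblast marker sums were also highest in SCs, and their part in these differences was not tested.

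*Pcdh9*, a delta-1 protocadherin (chromosome 14, 93414731 to 94287951, minus strand), stood at 0.222 and 0.0531 CPM in SCs, 24.3 and 25.6 CPM in cHCs, 70.1 and 53.0 CPM in OHCs (P7), 27.1 and 7.28 CPM in OHCs (P22), and 1.45 and 8.82 CPM in IHCs. Every hair cell library was above both SC libraries, and OHCs (P7) were highest. Over SCs it was higher by 7.51 on the log2 scale in cHCs (SE 1.60, FDR 0.0409), 8.81 in OHCs (P7) (SE 1.69, FDR 0.0161) and 6.97 in OHCs (P22) (SE 1.57, FDR 0.021). The call in cHCs was lost without SC-12, SC-11, cHC-16, P7-15 or P7-14, with FDR between 0.052 and 0.189. Without SC-11 those in OHCs (P7) (FDR 0.079) and OHCs (P22) (FDR 0.0979) were lost too, the latter also without m21 (FDR 0.0617).

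*Pcdh7* is a delta-1 protocadherin (chromosome 5, 58109260 to 58520590, plus strand). By mean RPKM it was the most abundant of the protocadherins described here in every hair cell type. In IHCs this rested on m74, because in m75 *Pcdh1* (14.3 RPKM) was slightly above *Pcdh7* (13.8 RPKM). *Pcdha4* and *Pcdhga9*, which lack an annotated length, and *Pcdh15*, which is not among these genes, did not enter that ranking. *Pcdh7* stood at 16.0 and 3.48 CPM in SCs, compared with 97.3 and 63.6 CPM in cHCs. Native hair cells had 237 and 108 CPM in OHCs (P7), 235 and 101 CPM in OHCs (P22), and 140 and 85.6 CPM in IHCs. All 8 hair cell libraries were above both SC libraries. The difference from SCs was 4.15 on the log2 scale in OHCs (P7) (SE 0.89, FDR 0.0285) and 4.11 in OHCs (P22) (SE 0.89, FDR 0.0172), and was not called in cHCs, at 3.05 (SE 0.85, FDR 0.12), or in IHCs, at 3.54 (SE 0.87, FDR 0.0604). Without SC-11 both calls were lost (FDR 0.0917 and 0.0621), as they were without P7-15 for OHCs (P7) (FDR 0.1) and without m21 for OHCs (P22) (FDR 0.0632). Among the genes ranked, *Pcdh7* held 38.4% to 58.5% of the protocadherin RPKM of IHCs and 68.4% to 78.5% of that of OHCs (P22), whereas *Pcdh17* held 52.1% and 82.4% in SCs.

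*Pcdh8*, a delta-2 protocadherin known from the brain and the early embryo (chromosome 14, 80166587 to 80171119, minus strand), was counted 244 and 827 times in the cHC libraries. The 8 other libraries held 2 reads in all, 1 in SC-12 and 1 in P7-14. Its level was 10.37 and 20.96 CPM in cHCs, so that cHCs did not overlap with any other cell type. The ratio of cHCs to SCs was 1024, with a 95% counting interval from 183 to 40475. With a floor of 3 counts per library, cHCs were at least 80.3-fold higher than OHCs (P22) and at least 154-fold higher than IHCs. The joint test called it (FDR 0.0383), and no pair of cell types did (cHCs against SCs, FDR 0.209). Its promoter window is the one above with TATAAA.

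*Pcdh1* and *Pcdh11x* were not called. *Pcdh1* ranged from 0.441 CPM in m21 to 121 CPM in m75 (joint FDR 0.49). *Pcdh11x*, named here after its values were seen, stood at 12.03 and 20.36 CPM in cHCs, above every other library, and at 0.0444 and 0.0265 CPM in SCs. It was split within IHCs, with 0.101 CPM in m74 and 11.6 CPM in m75 (joint FDR 0.201).

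The clustered protocadherins were counted under 2 alpha, 22 beta and 1 gamma symbols. Alpha and gamma isoforms share their last exons, so that reads under *Pcdha4* and *Pcdhga9* may come from any isoform of the cluster. *Pcdha4* stood at 0.178 and 0.186 CPM in SCs, 26.7 and 69.7 CPM in cHCs, 61.4 and 90.8 CPM in OHCs (P7), 2.03 and 3.79 CPM in OHCs (P22), and 10.7 and 58.6 CPM in IHCs. All hair cell libraries exceeded both SC libraries, and those of OHCs (P22) were the lowest among them. It was higher than in SCs by 8.01 on the log2 scale in cHCs (SE 1.37, FDR 0.0112), 8.67 in OHCs (P7) (SE 1.40, FDR 0.00653) and 7.54 in IHCs (SE 1.34, FDR 0.0119). Without SC-12 the calls in cHCs (FDR 0.0749) and IHCs (FDR 0.0647) were lost, and likewise without SC-11 (FDR 0.0717 and 0.0674). *Pcdhga9*, by contrast, was present in every library, from 32.0 CPM in P7-15 to 344 CPM in m21 (joint FDR 0.247).

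Of the 22 beta genes 13 were tested, and none was called in any edgeR comparison. Single libraries stood out, such as *Pcdhb19* with 49.4 CPM in SC-12 and 0 in SC-11, *Pcdhb22* with 24.3 CPM in P7-14 and 0 in P7-15, and *Pcdhb17* with 23.7 and 6.79 CPM in OHCs (P7) and at most 7.58 CPM elsewhere. In OHCs (P7) 8 of the 22 were over 1 CPM in both libraries. That held for 4 in IHCs, 1 in cHCs and none in SCs or OHCs (P22).

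**Figure D3:**
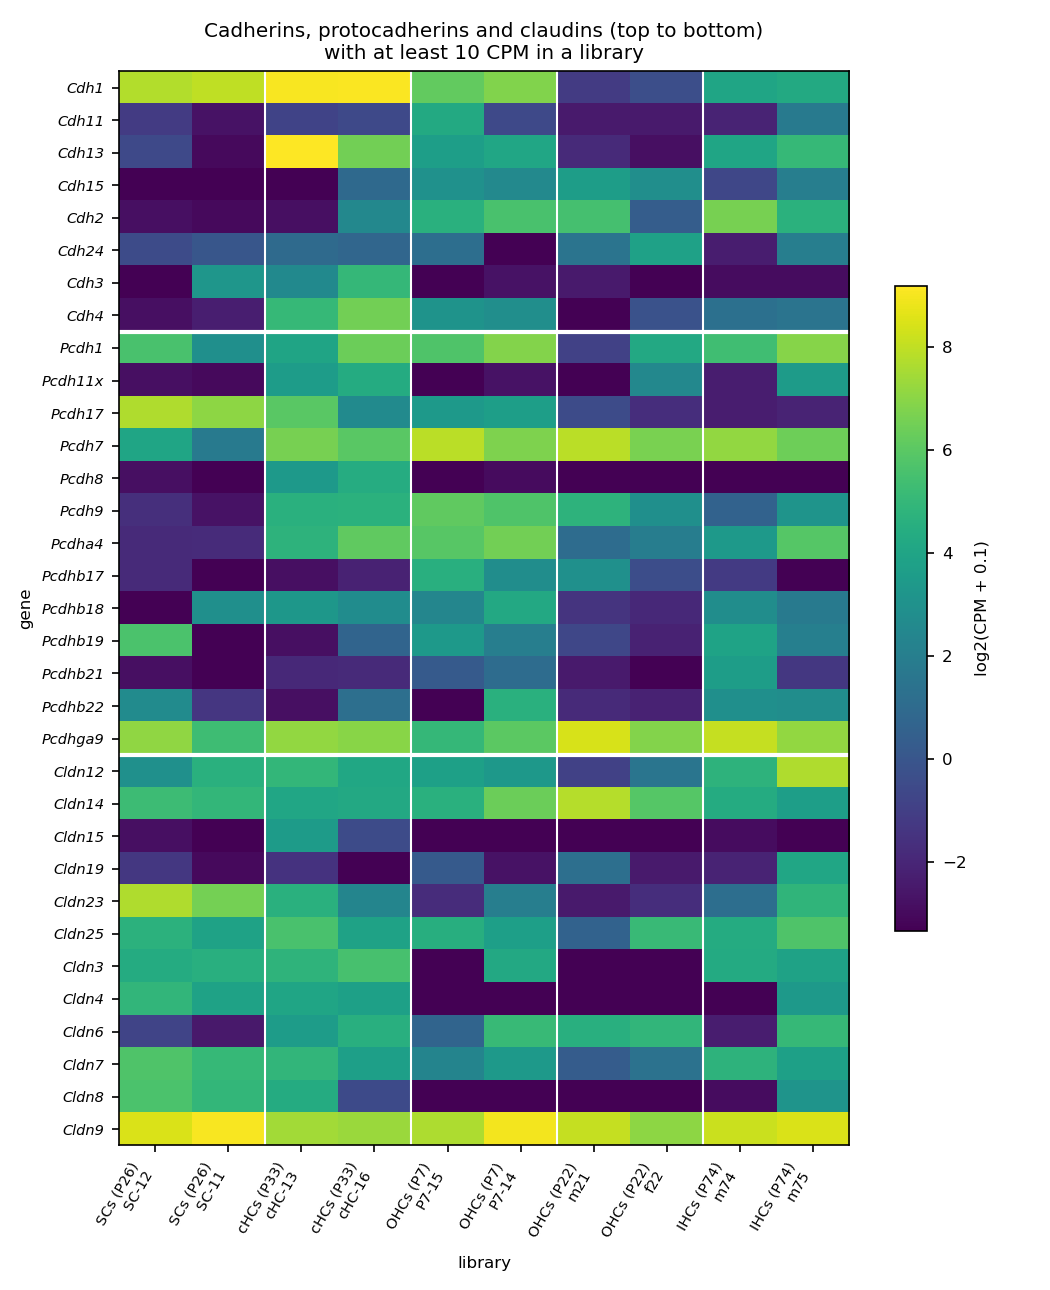
Heatmap of log2(CPM + 0.1) for the 33 genes with at least 10 CPM in a library, with 1 column per library and white lines between cell types and between families. *Cldn9* was high in every column, *Pcdh8* was above the lowest shades in the cHC columns, and *Cldn3*, *Cldn4* and *Cldn8* were dark in both columns of OHCs (P22).

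*Cldn9* was the leading claudin of every library. Its gene is a single exon (chromosome 17, 23819552 to 23820985, minus strand) next to *Cldn6* on the other strand, and the annotated exons of the pair do not overlap. The level of *Cldn9* was 353 and 524 CPM in SCs, 173 and 159 CPM in cHCs, 200.5 and 490.1 CPM in OHCs (P7), 274 and 134 CPM in OHCs (P22), and 291 and 353 CPM in IHCs. Both cHC libraries lay below those of SCs, OHCs (P7) and IHCs, and both OHC (P22) libraries below those of SCs and IHCs, while the other pairs of types overlapped. No difference was called (joint FDR 0.332), with the largest fitted difference, between cHCs and SCs, at -1.40 on the log2 scale (SE 0.56, FDR 0.287). Per length, *Cldn9* held between 50.6% and 79% of the claudin signal of each library.

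*Cldn14* stood at 38.3 and 31.1 CPM in SCs, 17 and 18.6 CPM in cHCs, 24.0 and 81.3 CPM in OHCs (P7), 222 and 59.3 CPM in OHCs (P22), and 20.8 and 12.9 CPM in IHCs. OHCs (P22) were above SCs, cHCs and IHCs without overlap and overlapped with OHCs (P7), but no test called it (joint FDR 0.116, OHCs (P22) against cHCs 2.98 on the log2 scale, SE 0.92, FDR 0.115). It was the second claudin of both OHC types, with 35.1% and 18.7% of the claudin RPKM of OHCs (P22).

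*Cldn23* was the only claudin called (chromosome 8, 36887766 to 36889613, minus strand). Little is known of its protein beyond its place in epithelial tight junctions. It stood at 209 and 93.2 CPM in SCs, 24.2 and 5.02 CPM in cHCs, 0.201 and 3.95 CPM in OHCs (P7), 0.0881 and 0.210 CPM in OHCs (P22), and 2.15 and 29.3 CPM in IHCs. Both SC libraries were above all others. OHCs (P22) were lower than SCs by -9.86 on the log2 scale (SE 2.08, FDR 0.0152), a call lost without m21 (FDR 0.0844) and without f22 (FDR 0.0516), and the differences of cHCs (-3.37, SE 1.53, FDR 0.333) and IHCs (-3.26, SE 1.52, FDR 0.296) from SCs were not called. As for *Pcdh17*, the SC and fibroblast marker sums were highest in SCs too.

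*Cldn3*, *Cldn4*, *Cldn7* and *Cldn8*, which are widespread in tight epithelia, were tested without a call in any comparison, and their libraries of OHCs (P22) lay below those of SCs and cHCs; *Cldn4* and *Cldn8* are named after their values were seen. *Cldn3* stood at 20.6 and 23.7 CPM in SCs, compared with 27.8 and 46.5 CPM in cHCs. Native hair cells had 0 and 18.6 CPM of it in OHCs (P7), no read in OHCs (P22), and 20.1 and 14.5 CPM in IHCs. With 3 counts per library as the floor, *Cldn3* was at least 113-fold higher in SCs than in OHCs (P22), and the test there gave an FDR of 0.0507.

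*Cldn4* had 29.5 and 14.8 CPM in SCs, 15.9 and 13.5 CPM in cHCs, and no read in the 4 native OHC libraries or in m74, with 10.9 CPM in m75. *Cldn8* had 49.4 and 30.6 CPM in SCs, no read in native OHCs, and in cHCs 20.8 CPM in cHC-13 and 0.608 CPM in cHC-16, of which cHC-13 also had more *Pcdh17* and a higher SC marker sum. *Cldn7* stood at 53.0 and 32.8 CPM in SCs, compared with 1.15 and 2.52 CPM in OHCs (P22), a difference of -4.54 on the log2 scale (SE 1.26, FDR 0.0517). The SC marker sums were also lowest in OHCs (P22), and their part in these levels was not tested.

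*Cldn6* was near 0 in SCs, at 0.488 and 0.0796 CPM, and stood at 12.03 and 23.35 CPM in cHCs and 23.4 and 29.8 CPM in OHCs (P22). It was split between libraries in OHCs (P7), at 1.54 and 34.7 CPM, and in IHCs, at 0.101 and 33.2 CPM, and was not called (joint FDR 0.383). *Cldn12* stood at 27.4 CPM in m74 and 210 CPM in m75 and at 0.441 and 2.78 CPM in OHCs (P22), and came close to the threshold (joint FDR 0.0698). The claudins of other cochlear barriers were nearly absent. *Cldn5* of blood vessels was counted once in all, and *Cldn11*, which seals the basal cells of the stria vascularis, did not exceed 1.09 CPM. The endothelial markers summed to at most 14.5 CPM in any library and those of the stria to at most 13 CPM.

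Set side by side, the pairs of cell types gave few calls each. Fits that leave out a library change which genes pass the filter, so their counts are not out of the same 47 genes. Between cHCs and SCs 4 of the 47 genes were called (8.51%), all higher in cHCs, beside 1.84% of all genes tested, of which 296 were higher and 15 lower. The median log2 fold change was 1.37 over the 47 genes and 0.03 over all genes. Because genes can pass the filter through 1 cell type, this was not read as a shift of the families. The 4 genes were *Cdh4*, *Cdh13*, *Pcdh9* and *Pcdha4*, and leaving out SC-11 or SC-12 left 1 call and leaving out cHC-16 left 2. When the fit held only the 6 libraries of SCs, cHCs and OHCs (P7), which have plain numbers in their titles, 4 were called. With the title prefix as a term 2 were called, without *Cdh4* (FDR 0.0668) and *Pcdh9* (FDR 0.0579), and with only the SC and cHC libraries in the fit 2 were called, without *Cdh13* (FDR 0.0586) and *Pcdh9* (FDR 0.129).

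Between OHCs (P7) and SCs 4 genes were called, all higher in OHCs (*Cdh13*, *Pcdh7*, *Pcdh9* and *Pcdha4*), beside 3.41% of all genes. Leaving out a library lowered this number in some fits and raised it in others, and also raised the number of genes tested. Between OHCs (P22) and SCs 5 were called, beside 8.02% of all genes, with *Pcdh7* and *Pcdh9* higher and *Cdh1*, *Pcdh17* and *Cldn23* lower. This number too was lower without m21 or SC-11 and higher without a cHC, OHC (P7) or IHC library, with more genes tested in each of these fits. Between IHCs and SCs 4 were called, beside 2.65%, with *Cdh13* and *Pcdha4* higher and *Cdh1* and *Pcdh17* lower, and 2 were called without SC-11. The titles give SCs, cHCs and OHCs (P7) plain numbers, and OHCs (P22) and IHCs codes of a letter and a number. Cell type and a batch along this difference cannot be told apart in these pairs. The same holds between OHCs (P22) and cHCs or OHCs (P7) below. Age differed between all cell types, and so did the mouse line, except by the labels between the OHC types. Where they differed, they cannot be told apart from cell type.

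Between OHCs (P7) and cHCs edgeR called 0 of the 47 genes, beside 0.343% of all genes, while 9 of them had an unadjusted p under 0.05, as did 11.2% of all genes. Limma-voom called 3 of them and 2.24% of all genes, and DESeq2 called 8 and 6.65%. OHCs (P22) differed from cHCs in 3 genes, all lower (*Cdh1*, *Cdh13* and *Pcdh17*), beside 3.18% of all genes. More were called without an SC, OHC (P7) or IHC library, in fits that also tested more genes. Between OHCs (P22) and OHCs (P7) only *Cdh1* was called, beside 0.551%, and more were called in some of the fits without a library. IHCs exceeded OHCs (P22) in 2 genes, *Cdh1* and *Cdh13*, beside 1.46%. Fewer were called without m21 or f22, and more without m74, P7-15 or P7-14. Limma-voom called neither gene in this pair (FDR 0.111 and 0.241), nor did edgeR with only these 4 libraries (FDR 0.229 and 0.16). Over the 47 genes the median log2 fold change was -2.91 for OHCs (P22) against cHCs and -2.19 against OHCs (P7), where all genes had -0.19 and -0.04. Some of the 47 passed the filter through other cell types and had few or no reads in OHCs (P22). These medians were therefore not read as a shift of the families.

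**Figure D4:**
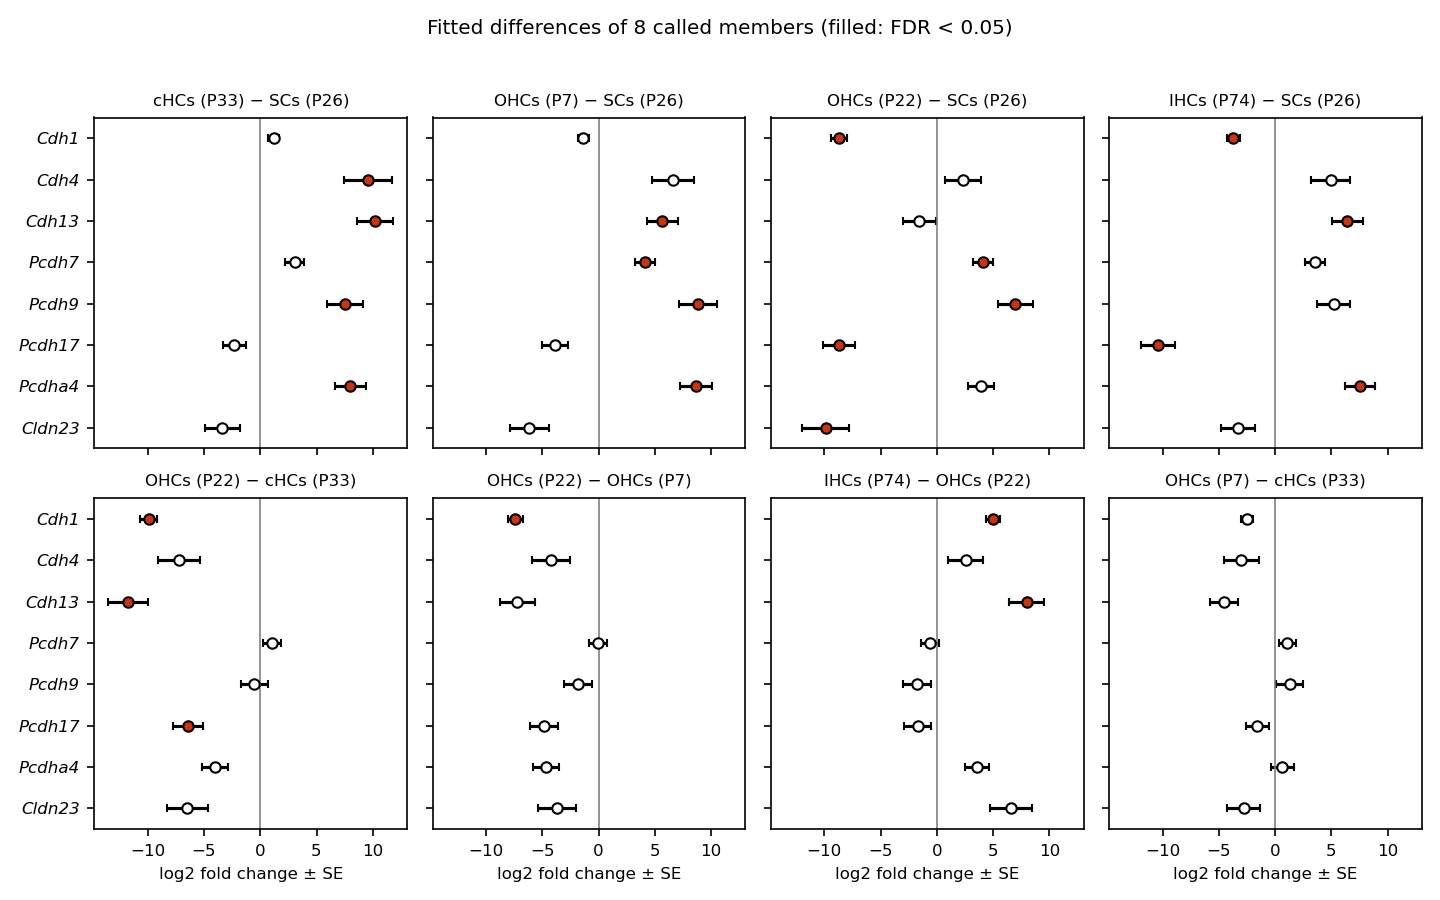
Fitted log2 fold changes with their standard errors for 8 of the 9 called genes in the 8 comparisons, filled where the FDR was under 0.05. *Pcdh8* is left out because its fitted fold changes rest on groups with 0 or 1 read. *Cdh1* lay to the left in every comparison of OHCs (P22) with another type as the reference, and *Cdh13*, *Pcdh9* and *Pcdha4* lay to the right in cHCs.

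Of the 20 listed adherens junction partners 18 were tested, and 7 differed between cell types, beside 7.81% of all genes tested. The partner lists were chosen with earlier results of these data known, so such counts were not read as a property of the lists. *Ctnna1* (alpha-catenin) stood at 607 and 402 CPM in SCs, compared with 23.9 and 33.9 CPM in OHCs (P22), -4.13 on the log2 scale (SE 0.71, FDR 0.00529). *Ctnnd1* (p120-catenin, which stabilises cadherins at the membrane) stood at 894 and 689 CPM in SCs, compared with 1.06 and 18.5 CPM in OHCs (P22), -6.33 (SE 1.16, FDR 0.00742).

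*Jup* (plakoglobin) had 55.2 and 47.5 CPM in SCs, compared with 380 and 337 CPM in OHCs (P22), 2.80 on the log2 scale (SE 0.53, FDR 0.00905). *Ctnnd2* (delta-catenin) was higher in OHCs (P22) than in SCs by 2.44 (SE 0.58, FDR 0.0265) without a call in the joint test (FDR 0.106). *Ctnnb1* (beta-catenin) lay between 79.8 and 310 CPM in all libraries and was not called (FDR 0.114). *Pvrl1* (nectin-1) was the only partner of this list called between cHCs and SCs, at 0.133 and 0.796 CPM in SCs, compared with 40.6 and 147 CPM in cHCs, 7.62 on the log2 scale (SE 1.69, FDR 0.0493). Between OHCs (P22) and SCs 3 of the 18 were called higher and 4 lower, beside 8.02% of all genes called in either direction. The median log2 fold change was -0.50 over the 18 partners and 0.0 over all genes.

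All 21 tight junction partners were tested, and 6 differed between cell types, beside 7.81% of all genes tested. *Cgn* (cingulin) stood at 48.0 and 125 CPM in SCs, 140 and 30.8 CPM in cHCs, and 2367 and 1540.0 CPM in OHCs (P22), and was higher in OHCs (P22) than in cHCs by 4.52 on the log2 scale (SE 0.78, FDR 0.0118). *Magi3* showed 4.73 (SE 0.81, FDR 0.0119) and the scaffold gene *Mpdz* 2.57 (SE 0.50, FDR 0.0193) in the same comparison. *Mpdz* was also higher in cHCs than in SCs, by 3 (SE 0.51, FDR 0.0107). *Marveld3* had 17.3 and 166 CPM in SCs, compared with 0 and 0.0421 CPM in OHCs (P22), where it was called lower (FDR 0.00448) on 1 read in all. *Ildr1*, a deafness gene of tricellular junctions, was lower than in SCs in OHCs (P7) by -3.30 (SE 0.68, FDR 0.0235). *Tjp1* lay between 83.7 and 673 CPM and was not called.

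**Figure D5:**
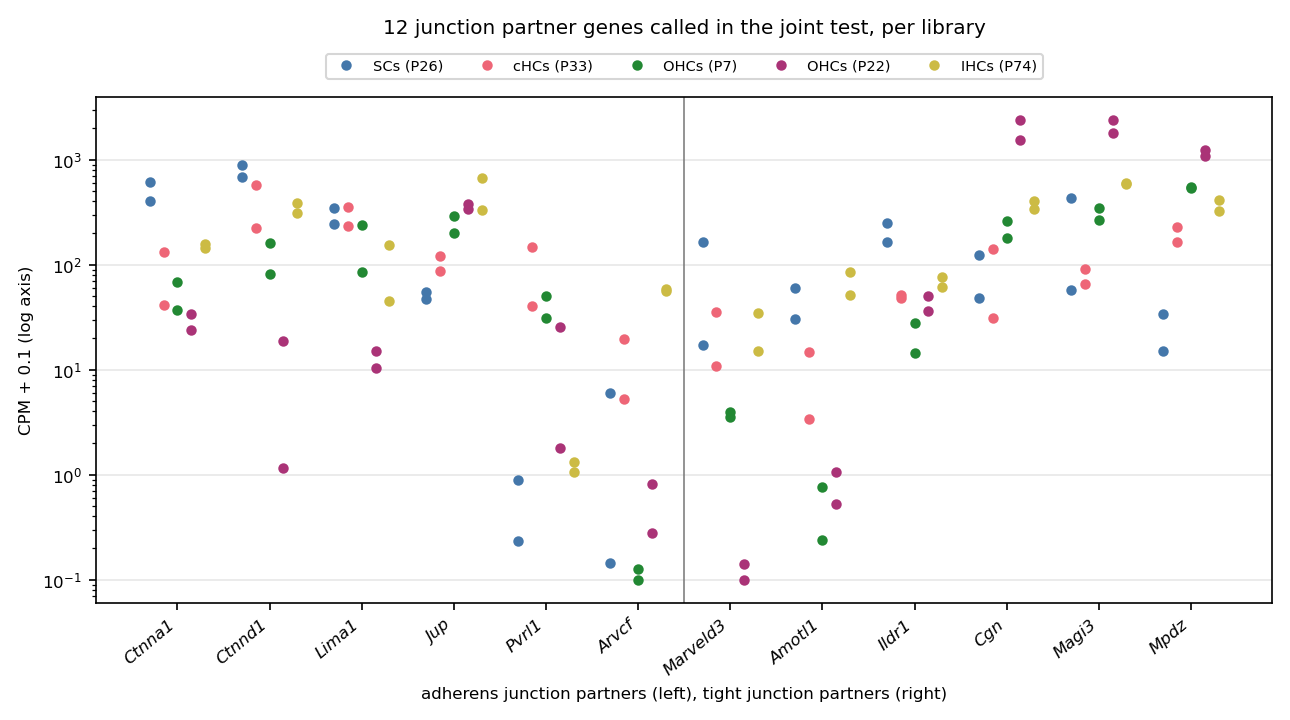
CPM plus 0.1 on a log axis for 12 of the 13 junction partner genes called in the joint test, with adherens junction partners on the left, tight junction partners on the right and 1 point per library, coloured by cell type. *Ctnna1* and *Ctnnd1* were lowest and *Cgn*, *Magi3* and *Mpdz* highest in OHCs (P22).

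For comparison, the tip link gene *Cdh23* stood at 0.754 and 1.57 CPM in SCs and between 301 and 1691 CPM in the hair cell libraries, and was higher in cHCs than in SCs by 8.87 on the log2 scale (SE 0.85, FDR 0.000239). *Pcdh15* lay between 128 and 385 CPM in all libraries, SCs included (joint FDR 0.769).

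The remaining 38 genes did not pass the filter. Of these, 8 had no read in any library (*Cdh17*, *Cdh19*, *Cdh26*, *Cldn13*, *Cldn16*, *Cldn17*, *Cldn21* and *Cldn26*) and 30 had at least 1 read, with no level over 6.37 CPM. Among genes over 10 CPM in a library, the 2 libraries of a type were at least 10-fold apart for 1 of 15 genes of the families in SCs, 3 of 23 in cHCs, 4 of 21 in OHCs (P7), 3 of 11 in OHCs (P22) and 6 of 20 in IHCs. Over all genes the same was seen for 14.8%, 9.37%, 8.71%, 18.4% and 10.3%.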

How the data were processed

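Total RNA was extracted by the authors from handpicked cells, amplified by single primer isothermal amplification and sequenced as paired-end reads. The deposited files hold raw read counts per gene symbol, which the authors made with CASAVA 1.7, Cutadapt, STAR, BWA and HTSeq against mm9, without normalization. Whether the counting used strand is not given in the sources used here. HTSeq's rows for unassigned reads (44.18% to 72.14% of the total) were left out. Each file was taken for the library in its name, which was checked against the CPM columns of the study's supplementary table (coefficient of variation under 1% over genes with at least 10 counts).

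Counts were fitted in edgeR 4.0.16 (R 4.3.3) with TMM factors, filterByExpr by cell type and quasi-likelihood F-tests, 2-sided, in 1 model of 10 libraries (5 residual degrees of freedom, common dispersion 1.12). P values were adjusted over 16891 genes by Benjamini and Hochberg's method, and genes with an FDR under 0.05 were called. The SE is the log2 fold change divided by the square root of F. RPKM used exon lengths of the GENCODE annotation of mm9, found for 83 of the 85 genes. In that annotation the exons of 6 of the genes share bases with another gene (*Cdh4*, *Cdh8*, *Cdh24*, *Cldn3*, *Cldn19* and *Pcdh19*). A floor is 3 counts, from 0.074 to 0.2 CPM before TMM scaling, and intervals are exact binomial ones that cover counting error only.

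The genes picked to be named were those called, the 3 highest by RPKM of each family in each cell type, the called genes of the partner lists and 11 preset ones. Of these, *Cldn25* (joint FDR 0.94), *Arvcf*, *Lima1* and *Amotl1* were plotted without a description. The genes and lists were chosen with earlier results of these data known. Alternatives were DESeq2 1.42.0, limma 3.58.1 with voom, RLE scaling, other filters, fits of fewer libraries, the title prefix as a term, omission of 1 library at a time and the files as the records carry them. Tests were tried on simulated counts. Python 3.11.15, numpy 2.4.6, pandas 2.3.3, scipy 1.17.1 and matplotlib 3.10.9 were used. Values of 1 called partner gene, counted in its list, are not reported here.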

Additional observations from a re-analysis of the deposited data

How the results depend on the processing

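The counts of genes called rest on 2 libraries per cell type and moved with the method. Counts are given below in the order joint test, cHCs against SCs, OHCs (P7) against SCs, OHCs (P22) against SCs, IHCs against SCs, OHCs (P7) against cHCs, OHCs (P22) against cHCs, OHCs (P22) against OHCs (P7), and IHCs against OHCs (P22), and were 8, 4, 4, 5, 4, 0, 3, 1 and 2 as reported. DESeq2 called 21, 10, 17, 19, 15, 8, 15, 8 and 10, and no filter on low counts gave 19, 7, 11, 12, 8, 4, 10, 5 and 8. The shares of all genes called rose too, in the joint test from 7.81% to 26% and 17.4%, and between OHCs (P22) and SCs from 8.02% to 24.6% and 10.8%. With at least 10 counts in every library, which most of these genes do not reach, the counts were 1, 0, 1, 2, 1, 0, 0, 0 and 0. Limma-voom called 12, 7, 11, 9, 5, 3, 6, 1 and 0. With only the cell types compared, the pairs gave 2, 5, 5, 3, 0, 3, 0 and 0, and the title prefix as a term lowered cHCs against SCs to 2. RLE scaling kept every count within 1.5 times and moved the median of all genes by 0.153 between OHCs (P22) and OHCs (P7). The files as attached to the records, 4 of which hold another library, gave 0 throughout and turned *Cdh13* to -5.5 and *Cdh4* to -1.93 on the log2 scale in cHCs against SCs, and *Cdh13* to -2.41 in OHCs (P7) and -3.54 in IHCs against SCs.

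Leaving out each library in turn gave ranges of 8 to 11, 1 to 4, 1 to 8, 2 to 11, 2 to 6, 0 to 1, 2 to 6, 1 to 3 and 1 to 5 in the same order, where a lone library was assumed to vary like the other cell types. The highest counts came without m74 or m75 for OHCs (P7) against SCs, OHCs (P22) against SCs and OHCs (P22) against cHCs. For OHCs (P22) against OHCs (P7) the highest count came without P7-15 and also without cHC-16. For IHCs against OHCs (P22) it came without P7-14 or P7-15. The 23 pairwise calls of single genes kept their direction in all 378 refits other than that of the files as attached, and 323 of these stayed called. CPM without TMM factors moved 4 of 45 mean levels by more than 1 SD. No paired analysis was possible because the labels give the cell types no shared replicate numbers, and the title prefix, with 1 library of each kind in SCs, cHCs and OHCs (P7), was fitted as a batch term instead.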
